A study of Homo sapiens with 6 samples.

Results

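The cell line studied, MDA-MB-231, comes from a human breast cancer of the triple-negative kind, without estrogen and progesterone receptors or an amplified HER2 gene. The 2 control states of these cells are described here, from 2 of the 6 mRNA libraries of the study. They were the control library of a CDK16 knockdown experiment and the control library of an experiment with rebastinib (Reb), a kinase inhibitor, and they were selected by label as one column in each of the count tables and joined on the gene symbol. The scramble control carried a scramble shRNA, a hairpin without an intended target, in a lentiviral pLKO.1-GFP vector, and stable lines were made by infection and fluorescence-activated sorting. The DMSO control was treated with the vehicle for 48 h, and its labels name no vector. The other libraries were CDK16-sh1 and CDK16-sh2 beside scramble, and 1 μM and 5 μM Reb for 48 h beside DMSO. All cells were grown in DMEM with fetal bovine serum and antibiotics. Each condition had 1 library, so no difference between the controls has a replicate check, and the vector, the sorting, the vehicle, the culture history and the library cannot be told apart. Whether a stable line was a pool or a clone was not given in the sources used here.

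MDA-MB-231 belongs to the mesenchymal-like group of breast cancer lines, which keep some simple-epithelial keratins but have lost E-cadherin junctions, and which carry high levels of vimentin and of CD44, the hyaluronan receptor. Such cells also express a basal set of interferon-induced genes, HLA molecules and secreted cytokines that can vary between cultures. The X chromosome holds families of cancer-testis genes, which are normally active in the testis, are kept silent in other tissues by DNA methylation of their promoters, and become active in many tumors.

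Counts summed to 25838443 for scramble and 50303269 for DMSO, and to between 27499155 and 49367654 for the others. The 100 most abundant genes took 25.8% and 24.3% of the counts, and mitochondrial transcripts 11.3% and 7.19%. A count of 3, the floor used below, corresponded to 0.116 CPM (counts scaled to a common library size) in scramble and 0.0596 CPM in DMSO. Log2 ratios of scramble over DMSO were taken after TMM scaling, for 15763 genes whose mean in the controls reached 1 CPM. A prior count that averaged 2 was added, in proportion to the scaled size of each library. The intervals of the ratios are 95% exact (Clopper-Pearson) and cover counting error only. Levels are RPKM, which are per exon length, so that genes can be compared with each other.

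The controls shared most of their expressed genome. Of the nuclear protein-coding genes, 10528 reached 1 RPKM in scramble and 10536 in DMSO, and 9934 did in both, which is 94.4% and 94.3% of each list. Of the 100 most abundant, 74 were shared. TMSB10, which encodes the actin-sequestering thymosin beta 10, led both libraries, with 3472 RPKM in scramble and 5140 RPKM in DMSO. MT2A, a metallothionein, held 1585 and 1751 RPKM, and GAPDH, the glycolytic enzyme, 678 and 633 RPKM. MMP1, the interstitial collagenase, ranked 17 in scramble and 14 in DMSO, with 691 and 715 RPKM. Most of the 20 genes with the highest mean level encoded actin and actin-binding proteins (ACTB, ACTG1, PFN1), chaperones (HSP90AB1, HSP90AA1, CALR), nucleolar and chromatin proteins (NPM1, NCL, PTMA, HMGA1) and translation proteins (EEF1A1, RPL23A, YBX1). HSP90AB1 stood at 1046 RPKM in scramble and 2074 RPKM in DMSO, a log2 ratio of -1.10.

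The estrogen and progesterone receptors and E-cadherin were near 0 and vimentin and CD44 were high in both controls, the pattern that the labelled line is known for. ESR1, the estrogen receptor, had 8 counts in scramble and 2 in DMSO, and PGR, the progesterone receptor, had 1 and 4. ERBB2, the HER2 gene, was present at 5.06 and 6.54 RPKM, and EGFR had 6459 and 18029 counts. E-cadherin (CDH1) had 7 counts in each control, GRHL2, a factor of epithelial identity, 1 and 0, and KRT5, a basal keratin, 0 and 1. Other epithelial junction genes were present, since 7 of 16 passed the filter and the list summed to 51.7 CPM in scramble and 56.1 CPM in DMSO, among them the tight junction gene CLDN7 at 7.35 and 5.98 RPKM. The simple-epithelial keratins were high in both, with KRT8 at 175 and 151 RPKM and KRT18 at 116 and 118 RPKM. VIM, the vimentin gene, had 86511 counts in scramble and 91270 in DMSO, or 649 and 352 RPKM, a log2 ratio of 0.78 (0.76 to 0.79). CD44 had 20745 and 17339 counts, or 79.8 and 34.3 RPKM, and a log2 ratio of 1.11 (1.08 to 1.14). Both markers were therefore abundant in each control and higher in scramble. MSN, the membrane-cytoskeleton linker moesin, went the other way, with 311 RPKM in scramble and 628 RPKM in DMSO. CDKN2A, an inhibitor of cell-cycle kinases, was at 0 counts in both controls, which allows at most 0.116 and 0.0596 CPM.

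**Figure D1:**
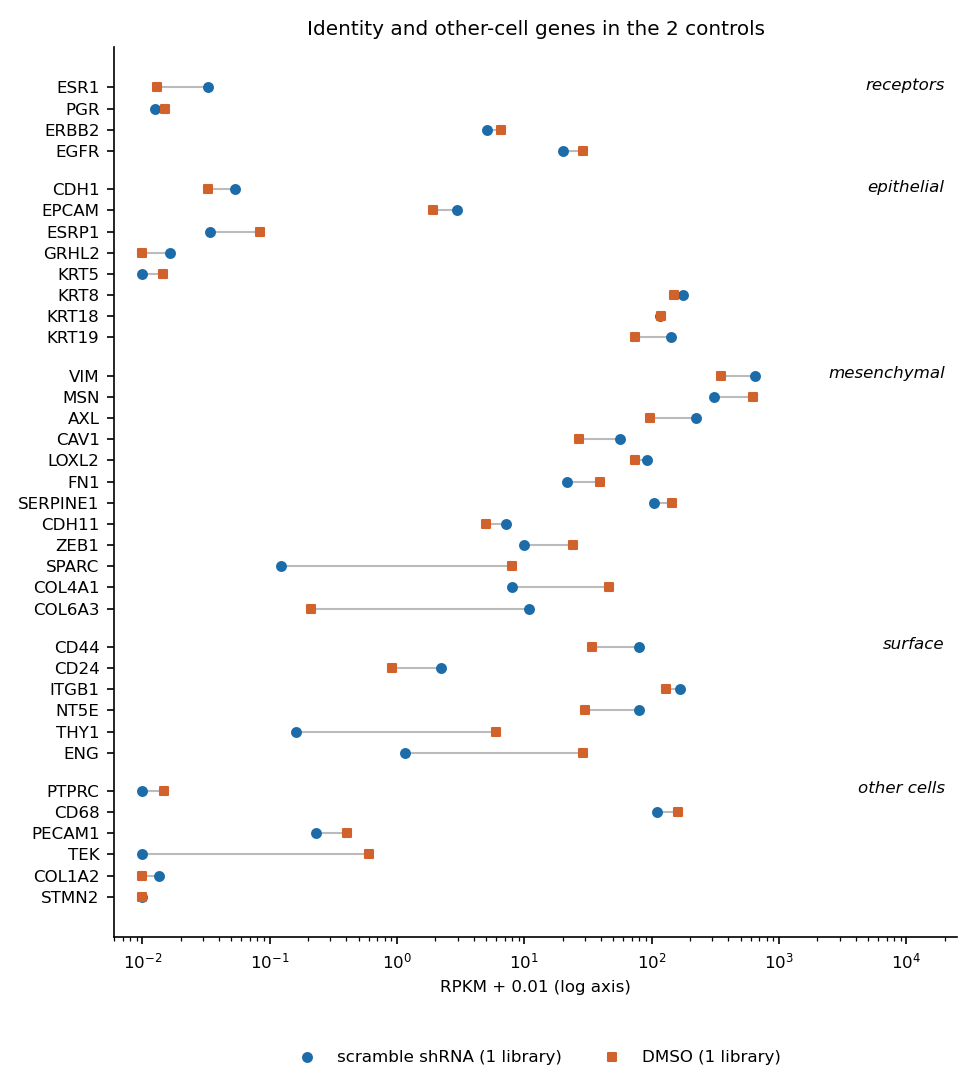
RPKM (log axis, 0.01 added) of identity and other-cell genes in the scramble control (circles) and the DMSO control (squares), 1 library each, joined by a line per gene. Vimentin, moesin, AXL and CD44 lie far right in both, the hormone receptors and E-cadherin far left, and SPARC, COL6A3, THY1 and ENG are spread widely between the controls.

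Of the growth-control genes, BRAF stood at 1.29 RPKM in scramble and 1.03 RPKM in DMSO, and MYC at 36.8 and 32.8 RPKM. CDK16, the kinase targeted in the knockdown, had 3223 counts in scramble and 4996 in DMSO, or 19.1 and 15.2 RPKM, with a log2 ratio of 0.22 (0.16 to 0.28). The treated libraries held 1360 counts of it in CDK16-sh1 and 846 in CDK16-sh2.

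Several markers of other cell types were near 0, but other members of those lists passed the filter. Of 12 leukocyte genes, 3 reached the filter, CD68, CD14 and CSF1R. CD68, a lysosomal glycoprotein, made up nearly all of their sum, at 111 RPKM in scramble and 161 RPKM in DMSO. PTPRC, the pan-leukocyte marker, had 0 and 2 counts. The leukocyte list summed to 212 CPM in scramble and 330 CPM in DMSO, the fibroblast list to 17.0 and 24.0 CPM, the endothelial list to 6.20 and 13.6 CPM, and the neural list to 106 and 56.2 CPM. Part of the fibroblast sum was PDGFRB, a growth factor receptor, with 36 and 417 counts, and most of the neural sum TUBB3, a neuronal-type tubulin that many tumor lines express. STMN2, a neuronal gene, had 0 counts in both. The fibroblast collagen COL1A1 also passed the filter, at a mean of at least 5 CPM and with a log2 ratio of -0.04. Its partner COL1A2 had 1 and 0 counts. The endothelial receptor kinase TEK, one of the kinases that Reb inhibits, had 0, 1 and 0 counts in scramble, CDK16-sh1 and CDK16-sh2, against 142, 174 and 8 in DMSO, 1 μM Reb and 5 μM Reb. It was thus at least 26.2-fold higher in DMSO than in scramble, at a level of 0.587 RPKM. CDH5, the endothelial cadherin, had 4 counts in scramble and 122 in DMSO, while VWF had 0 and 4. Of 6 endothelial genes joined, 4 passed the filter, TEK, CDH5, PECAM1 and KDR. PECAM1 and KDR had log2 ratios of -0.93 and -0.35, and KDR reached a mean of 5 CPM.

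Differences between the controls were many. Of the genes tested, 1935 (12.3%) were at least 2-fold higher in scramble and 2065 (13.1%) at least 2-fold lower, and 8128 (51.6%) lay within 1.5-fold. Scaled by library totals, the split was 2316 higher and 1762 lower, and by RPKM 2142 and 1600. For scale, the same count was taken in each pair of libraries, centered on the pair's median. It was 25% of the genes between the controls, 11.0% and 9.57% between scramble and its knockdown libraries, 2.90% between DMSO and 1 μM Reb, and 50.7% between DMSO and 5 μM Reb. Differences of at least 64-fold were seen for 59 genes between the controls and for 0 genes between scramble and either knockdown library or between DMSO and 1 μM Reb. In these counts the controls lay farther apart than each did from its closest treated library. Between DMSO and 5 μM Reb more genes were 2-fold apart than between the controls, but fewer, 31, were at least 64-fold apart. Spearman's rho across genes, which are not independent, was 0.906 between the controls, 0.959 and 0.963 within the knockdown experiment and 0.983 between DMSO and 1 μM Reb.

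The other libraries were used to ask whether a difference between the controls belonged to the whole experiment. All 3 libraries of the knockdown experiment lay above all 3 of the Reb experiment for 21.0% of the genes tested and below them for 20.7%. Of the genes at least 2-fold apart between the controls, 1337 of the 1935 higher ones and 1445 of the 2065 lower ones were separated in this way in the same direction. This is no independent test, since the controls are part of both. In edgeR's quasi-likelihood test over the 6 libraries, with the experiment as the group, 773 genes (4.91%) were called higher and 1138 (7.23%) lower in the scramble experiment at an adjusted p (Benjamini-Hochberg) of at most 0.05 and a fold of at least 2. Treated libraries stand in for replicates in that test, so it asks for differences that exceed the effects of knockdown and Reb, and both counts depended on single libraries. Without 5 μM Reb they were 1990 and 2180, and without CDK16-sh1 97 and 211. Without scramble they were 166 and 333, and without CDK16-sh2 148 and 247, and without 1 μM Reb 301 genes were called higher.

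**Figure D2:**
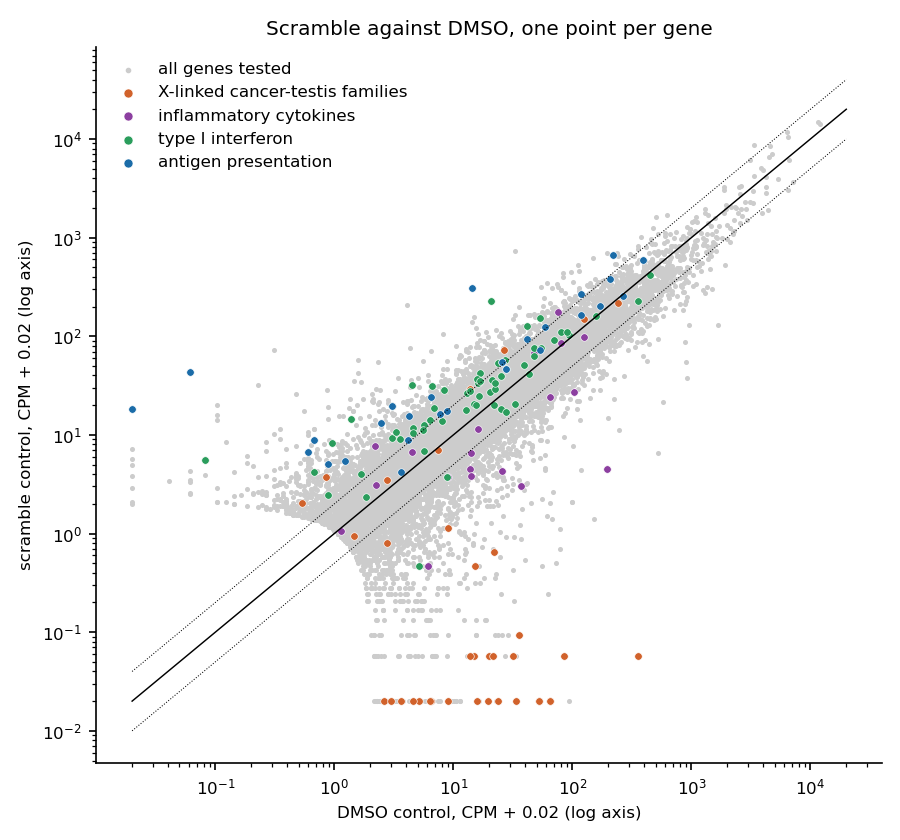
CPM (TMM scaled, log axes, 0.02 added) of each gene tested, in the DMSO control (x axis) and the scramble control (y axis), 1 library each. The solid line marks equality and the dotted lines 2-fold, and colored points are the members of 4 gene lists. Many cancer-testis genes lie along the bottom edge at 0 or 1 counts in scramble, antigen presentation genes lie above the diagonal and most cytokines below it.

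Many of the largest differences were of genes well covered in one control and at or near 0 counts in the other. Counting genes with at least 100 counts in one control and at most 3 in the other gave 133 genes for DMSO and 9 for scramble, in libraries of unequal depth. Of the 133, 130 had at most 10 counts in each library of the knockdown experiment, and of the 9, 4 had at most 10 in each library of the Reb experiment. Of the 133, 32 lay on the X chromosome and 24 were members of cancer-testis families. Outside these families, TUBA3C, a testis-type alpha tubulin on chromosome 13, had 0, 0 and 1 counts in scramble, CDK16-sh1 and CDK16-sh2 against 4573, 4886 and 621 in DMSO, 1 μM and 5 μM Reb, which is at least 844-fold higher in DMSO than in scramble. UCA1, a long noncoding RNA of epithelial tumors, had 174 counts in scramble and 25519 in DMSO, a log2 ratio of -6.33 (-6.57 to -6.13). H19, the imprinted fetal RNA, had 3 and 904 counts. HSD11B1, which regenerates active cortisol, had 6 and 3033 counts, and NLGN4X, a neuroligin, 1 and 1314. These 4 genes were also apart in all 6 libraries.

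The list for scramble was the shorter one, but these count limits are stricter for genes of the shallower scramble library. The genes below were among those with the 10 highest ratios. Besides 2 HLA class II genes described below, CHRDL1, a secreted BMP antagonist, had 1924 counts in scramble and 14 in DMSO, a log2 ratio of 7.71 (7.21 to 8.83). FBXL7, an F-box protein, had 542 and 4 counts, AMPH, a protein of clathrin-coated pits, 689 and 22, and EHF, an epithelial ETS factor, 1539 and 76. In edgeR's test over 6 libraries the adjusted p was 0.0018 for CHRDL1, 0.000597 for FBXL7 and AMPH, and 0.0017 for EHF. The processed pseudogenes EIF3FP3 and PPIAP29 were also among the 10 highest ratios, but they share reads with their parent genes and are uncertain.

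Cancer-testis genes of the X chromosome were present in the DMSO control and at or near 0 counts in the scramble control for most members. This group was put together after the values had been seen, so it is described without a test. It held 83 members of the MAGEA, MAGEB, MAGEC, GAGE, PAGE, XAGE, SSX, CSAG, SPANX, VCX and related families. In the DMSO control 63 of the 83 had more than 3 counts, and in the scramble control 16 did. For 48 members this was so in DMSO alone, for 15 in both, for 1 in scramble alone and for 19 in neither. The number with more than 3 counts was 16 in each library of the knockdown experiment, and 63, 58 and 58 in DMSO, 1 μM Reb and 5 μM Reb. Thus each library had the pattern of its experiment, whatever the treatment.

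The promoters of genes on either side of this pattern are shown for comparison, from 250 bases before to 50 after the start site (RefSeq, GRCh38.p14), each read 5′ to 3′ on the gene's strand with CG dinucleotides in capitals, the sites that DNA methylation acts on. MAGEA3 (chrX:152698544-152698843, plus strand) and VCX (chrX:7842921-7843220, plus strand) had 1 count each in scramble. XAGE1B (chrX:52516963-52517262, minus strand) and SPANXB1 (chrX:141002344-141002643, plus strand) were expressed in both controls.
MAGEA3: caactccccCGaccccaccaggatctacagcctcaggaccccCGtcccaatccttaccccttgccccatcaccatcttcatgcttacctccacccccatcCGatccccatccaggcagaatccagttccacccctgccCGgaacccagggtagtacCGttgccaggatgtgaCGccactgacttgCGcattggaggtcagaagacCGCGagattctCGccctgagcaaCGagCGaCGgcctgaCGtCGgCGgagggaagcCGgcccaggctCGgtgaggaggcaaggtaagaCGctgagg
VCX: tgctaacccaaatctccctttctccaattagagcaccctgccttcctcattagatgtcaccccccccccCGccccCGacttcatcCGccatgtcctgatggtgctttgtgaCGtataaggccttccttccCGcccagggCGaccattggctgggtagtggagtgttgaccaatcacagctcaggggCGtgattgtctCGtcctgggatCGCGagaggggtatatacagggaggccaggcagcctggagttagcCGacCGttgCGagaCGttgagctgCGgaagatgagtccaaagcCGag
XAGE1B: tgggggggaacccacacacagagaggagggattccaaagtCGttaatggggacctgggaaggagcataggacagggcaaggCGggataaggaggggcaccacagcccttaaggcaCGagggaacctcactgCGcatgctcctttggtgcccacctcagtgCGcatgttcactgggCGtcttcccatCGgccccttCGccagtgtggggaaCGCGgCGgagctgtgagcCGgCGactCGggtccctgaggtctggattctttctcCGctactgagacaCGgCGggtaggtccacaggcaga
SPANXB1: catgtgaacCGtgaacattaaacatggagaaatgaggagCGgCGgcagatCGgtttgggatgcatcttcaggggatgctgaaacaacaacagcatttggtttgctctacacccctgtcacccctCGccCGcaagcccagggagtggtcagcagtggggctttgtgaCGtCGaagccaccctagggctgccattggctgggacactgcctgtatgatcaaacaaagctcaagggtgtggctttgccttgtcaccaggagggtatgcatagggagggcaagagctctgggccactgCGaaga

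These windows held 19 CG dinucleotides in MAGEA3, 16 in VCX, 17 in XAGE1B and 9 in SPANXB1. The median was 11.5 over the 34 promoters found for members above the floor in DMSO only and 10 over the 15 for members in both controls, against 14 over 27305 promoters of all genes. The ranges overlapped, from 1 to 20 in the first group and from 3 to 21 in the second. DNA methylation was not measured here. The promoters of MAGEA3 and MAGEA6 are identical at 300 of 300 bases, and reads from near-identical family members cannot be assigned with certainty, so that sums over a family are safer than single members.

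The 13 MAGEA genes, which encode antigens recognized by T cells, summed to 0.604, 0.332 and 0.504 CPM in scramble, CDK16-sh1 and CDK16-sh2, and to 280, 286 and 731 CPM in DMSO, 1 μM Reb and 5 μM Reb. MAGEA3 (chromosome X, in the Xq28 cluster) had 1 count in scramble and 4133 in DMSO, and MAGEA6 had 0 and 2545. The 4 VCX genes, which lie at the other end of the X chromosome and encode small charged proteins of germ cells, summed to 0.0671 CPM in scramble and 393 CPM in DMSO. VCX alone had 1, 3 and 1 counts in the knockdown experiment and 17180, 21791 and 27763 in the Reb experiment, and stood at 324 RPKM in DMSO, near the level of vimentin there. PAGE5 had 0 counts in scramble and 3123 in DMSO, PASD1 0 and 3129, and CTAG2, a close relative of NY-ESO-1, 0 and 1615. These were at least 577-fold, 578-fold and 298-fold higher in DMSO. SSX1, known from the fusions of synovial sarcoma, had 17 and 1067 counts.

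Other X-linked cancer-testis genes were expressed in both controls. The 5 XAGE genes summed to 332 CPM in scramble and 329 CPM in DMSO. XAGE1B had 5808 and 11674 counts, or 159 and 164 RPKM, with a log2 ratio of -0.15 (-0.20 to -0.11). The 9 SPANX genes, which encode proteins of the sperm nucleus, summed to 127 and 56.0 CPM, and SPANXB1 was higher in scramble, at 162 and 54.8 RPKM. SPANXC went the other way, with a log2 ratio of -1.74 between the controls. It had 21, 35 and 18 counts in the knockdown experiment and 133, 107 and 176 in the Reb experiment. MAGEC1 had 190 and 358 counts, a log2 ratio of -0.06 (-0.32 to 0.20). Over the 38 members that passed the filter, 28 were at least 2-fold lower in scramble and 5 higher, and the median log2 ratio was -6.76, or -5.67 with genes at 0 placed at the bound set by 3 counts. Members passed the filter mostly through the DMSO library, so this median is not one of all 83.

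**Figure D3:**
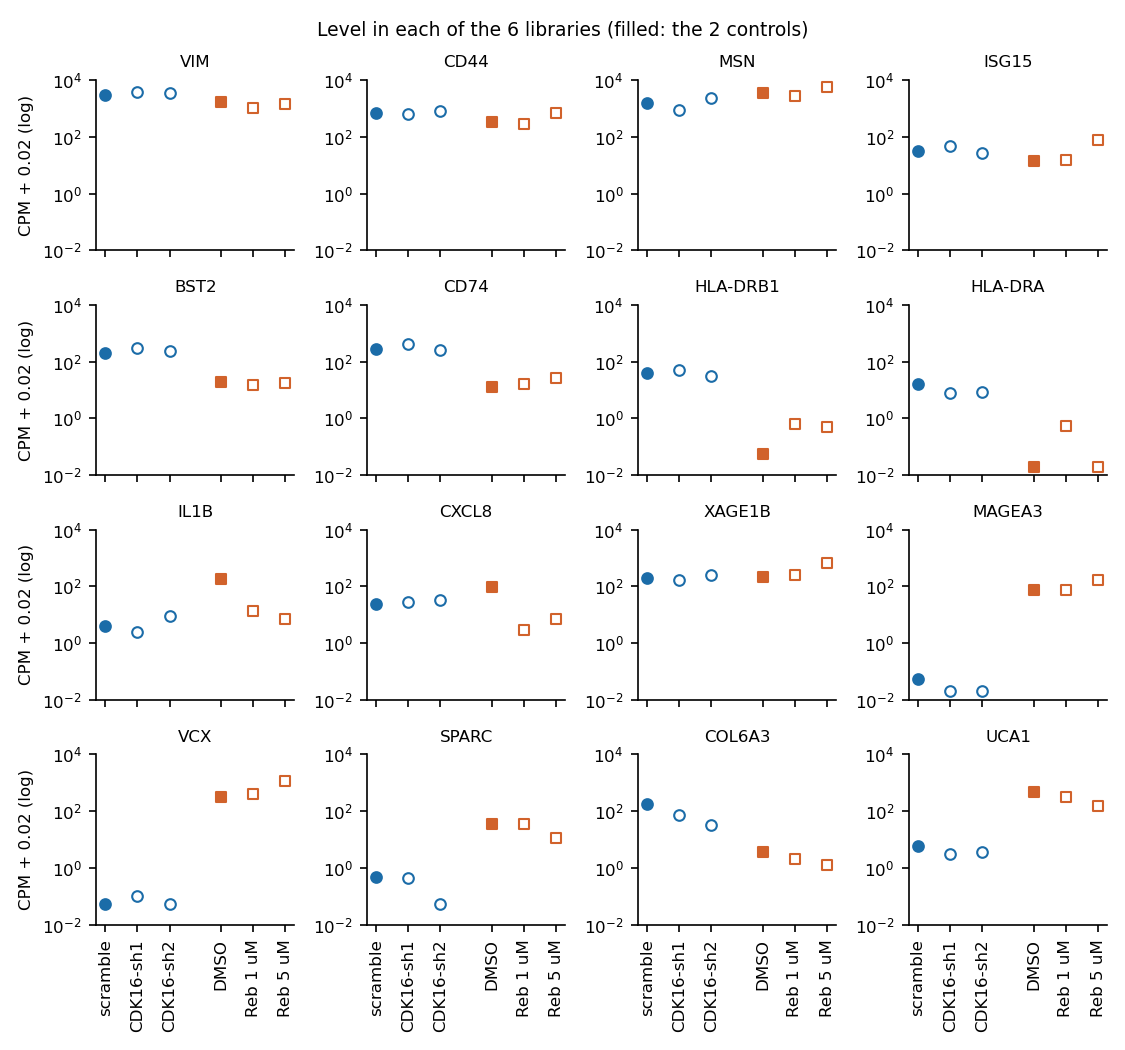
CPM (TMM scaled over 6 libraries, log axis, 0.02 added) of 16 genes in each library, with the knockdown experiment as circles and the Reb experiment as squares, and the 2 controls filled. MAGEA3, VCX, SPARC and UCA1 are low in the 3 libraries on the left and high in the 3 on the right, HLA-DRB1, HLA-DRA, CD74, BST2 and COL6A3 are the reverse, IL1B and CXCL8 stand out in the DMSO library alone, and VIM and XAGE1B are high in all.

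Of the 30 function lists, antigen presentation had the largest share of members higher in scramble, 70.4%. HLA class I molecules show peptides from the cytosol to CD8 T cells, after cutting by the immunoproteasome and transport by TAP. Class II molecules show peptides from endosomes to CD4 T cells, with CD74 as their chaperone and CIITA as the coactivator that switches them on. Of 27 listed genes, 19 were at least 2-fold higher in scramble and 0 lower, against 12.3% and 13.1% of all genes, and the median log2 ratio was 1.16, against 0 over all genes tested. In 18 of the 27 all libraries of the knockdown experiment lay above all of the Reb experiment, against 21.0% of all genes. EdgeR's test called 10 higher, against 4.91% of all genes.

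The class II genes differed most. HLA-DRA, the DR alpha chain (chromosome 6, 32439842 to 32445046 on GRCh38), had 485, 278 and 244 counts in scramble, CDK16-sh1 and CDK16-sh2, and 0, 28 and 0 in DMSO, 1 μM Reb and 5 μM Reb, so that it was at least 292-fold higher in scramble than in DMSO. HLA-DRB1, its beta partner, had 1171, 1809 and 832 against 2, 33 and 12. CD74 had 8284, 14936 and 7197 against 687, 897 and 655, or 101 RPKM in scramble and 4.29 RPKM in DMSO, a log2 ratio of 4.44 (4.33 to 4.56) and an adjusted p of 0.00139 in edgeR's test over 6 libraries. CIITA itself was less far apart, with 415 counts in scramble and 203 in DMSO and a log2 ratio of 1.87 (1.64 to 2.13), and its adjusted p was 0.059. All 8 class II genes, CD74 and CIITA included, were at least 2-fold higher in scramble, and they summed to 377 CPM there and 20.6 CPM in DMSO. HLA genes are highly variable between people and similar to each other, so reads of single members may be miscounted.

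The class I side differed less. HLA-B was at 232 RPKM in scramble and 70.3 RPKM in DMSO, with a log2 ratio of 1.61 (1.58 to 1.65), and HLA-E at 90.1 and 86.5 RPKM. B2M, the shared light chain, had 7118 and 5733 counts and a log2 ratio of 1.16 (1.11 to 1.22), but 5 μM Reb had 11305, so that the experiments overlapped. Among the immunoproteasome subunits, PSMB9 had 527 counts in scramble and 148 in DMSO, a log2 ratio of 2.66 (2.42 to 2.96), and PSMB10 648 and 316, a log2 ratio of 1.88. Both were called in the test over 6 libraries, with adjusted p of 0.0194 and 0.0193 in edgeR.

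Type I interferon genes were higher in scramble in part of the list. These genes are switched on by the factor ISGF3 through a DNA element, the ISRE. Of 62 tested, 30 were at least 2-fold higher in scramble and 2 lower, and the median log2 ratio was 0.89. Leaving out 3 genes shared with antigen presentation, these numbers were 28 and 2 of 59, with a median of 0.79. In 24 of the 62 all libraries of the knockdown experiment lay higher, and in 1 lower, which compares with 21.0% and 20.7% of all genes. EdgeR's test called 8 higher and 1 lower, against 4.91% and 7.23% of all genes. The letters of an ISRE core, TTTC followed by any 2 bases and a second TTTC, on either strand, were found in 32 of the 51 list promoters in the RefSeq table and in 3.65% of all promoters, which is a property of the list and not of these libraries. ISG15 (chr1:1013247-1013546, plus strand), a ubiquitin-like modifier, and BST2 (chr19:17405581-17405880, minus strand), the tether of budding virus, are shown with these letters in capitals, since both were higher in scramble than in DMSO and BST2, unlike ISG15, was also higher in all 3 libraries of the knockdown experiment than in any of the Reb experiment. The hits overlap each other in both.
ISG15: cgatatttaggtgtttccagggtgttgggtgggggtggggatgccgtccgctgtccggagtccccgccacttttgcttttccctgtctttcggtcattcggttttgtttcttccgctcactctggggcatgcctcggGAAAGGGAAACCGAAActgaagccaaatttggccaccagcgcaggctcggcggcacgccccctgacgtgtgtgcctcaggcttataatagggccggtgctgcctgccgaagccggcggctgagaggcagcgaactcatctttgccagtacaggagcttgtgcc
BST2: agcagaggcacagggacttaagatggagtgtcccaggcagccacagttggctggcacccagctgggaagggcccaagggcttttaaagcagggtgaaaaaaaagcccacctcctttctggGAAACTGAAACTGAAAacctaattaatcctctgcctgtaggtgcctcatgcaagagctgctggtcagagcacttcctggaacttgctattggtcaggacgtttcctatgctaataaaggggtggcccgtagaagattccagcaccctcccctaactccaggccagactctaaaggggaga

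BST2 had 6139, 11184 and 6805 counts in scramble, CDK16-sh1 and CDK16-sh2 and 997, 803 and 422 in DMSO, 1 μM Reb and 5 μM Reb. The groups did not overlap, the log2 ratio between the controls was 3.47 (3.38 to 3.57), and the adjusted p was 0.000947 in edgeR's test over 6 libraries. ISG15 had 909, 1720 and 725 counts against 772, 803 and 1857. It was 37.3 RPKM in scramble and 16.3 RPKM in DMSO, a log2 ratio of 1.09 (0.95 to 1.23). Under TMM scaling over 6 libraries, however, 5 μM Reb lay above all libraries of the other experiment, at 76.5 CPM. The TMM factor of 5 μM Reb was 0.6451, against 1.01 to 1.15 for the others, which raises its CPM, so this order depended on the scaling. OAS2, a sensor of double-stranded RNA, had 388 counts in scramble and 66 in DMSO, a log2 ratio of 3.36 (3.03 to 3.81), SAMD9L, an antiviral factor, 862 and 216, and UBE2L6, the ISG15-conjugating enzyme, 847 and 319. IFI27 had 150 and 3 counts.

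Other members of the interferon list were near equal or lower. MX1, an antiviral GTPase, had a log2 ratio of 0.46 (0.30 to 0.62). IRF9, the DNA-binding subunit of ISGF3, had a ratio of -0.46 (-0.61 to -0.31). LAMP3, a lysosomal protein of dendritic cells, had 12 counts in scramble and 248 in DMSO. Of 16 innate sensors tested, 2 (12.5%) were at least 2-fold higher and 0 lower, and the share higher was near the 12.3% of all genes. All libraries of the knockdown experiment lay higher for 10 of the 16 and lower for 1, against 21.0% and 20.7% of all genes. The 2 were TLR3, the endosomal receptor of double-stranded RNA, with 147 and 28 counts, and AIM2, a DNA sensor, with 84 and 36. IFNG had 0 counts in both controls.

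Inflammatory cytokines had the lowest median of the 30 function lists. Of 19 tested, 10 were at least 2-fold lower in scramble and 2 higher, and the median log2 ratio was -1.10. IL1B, which encodes interleukin 1 beta, had 120 counts in scramble and 9469 in DMSO, a log2 ratio of -5.43 (-5.72 to -5.19). IL6 had 81 and 1800 counts, a ratio of -3.60 (-3.96 to -3.30), CSF3, the granulocyte growth factor, 114 and 1247, and CXCL8, the neutrophil attractant, 722 and 4967. These 4 were high in the DMSO library and not in its experiment, since IL1B had 742 and 177 counts at 1 μM and 5 μM Reb, and CXCL8 160 and 172. None of the 19 had all libraries of the knockdown experiment below all of the Reb experiment, where 20.7% of all genes did. EdgeR's test called 1 of them, as higher in the scramble experiment, against 4.91% of all genes. This was CCL2, a monocyte attractant, with 207 counts in scramble, 106 in DMSO and an adjusted p of 0.013. CXCL1 differed little between the controls, at 68.8 and 59.1 RPKM. Of 25 NF-kB genes, 1 was at least 2-fold higher and 3 (12.0%) lower, and the share lower was near the 13.1% of all genes. The lower ones included TNFAIP2 at -2.07 and TNFAIP3, an NF-kB inhibitor, at -1.94.

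**Figure D4:**
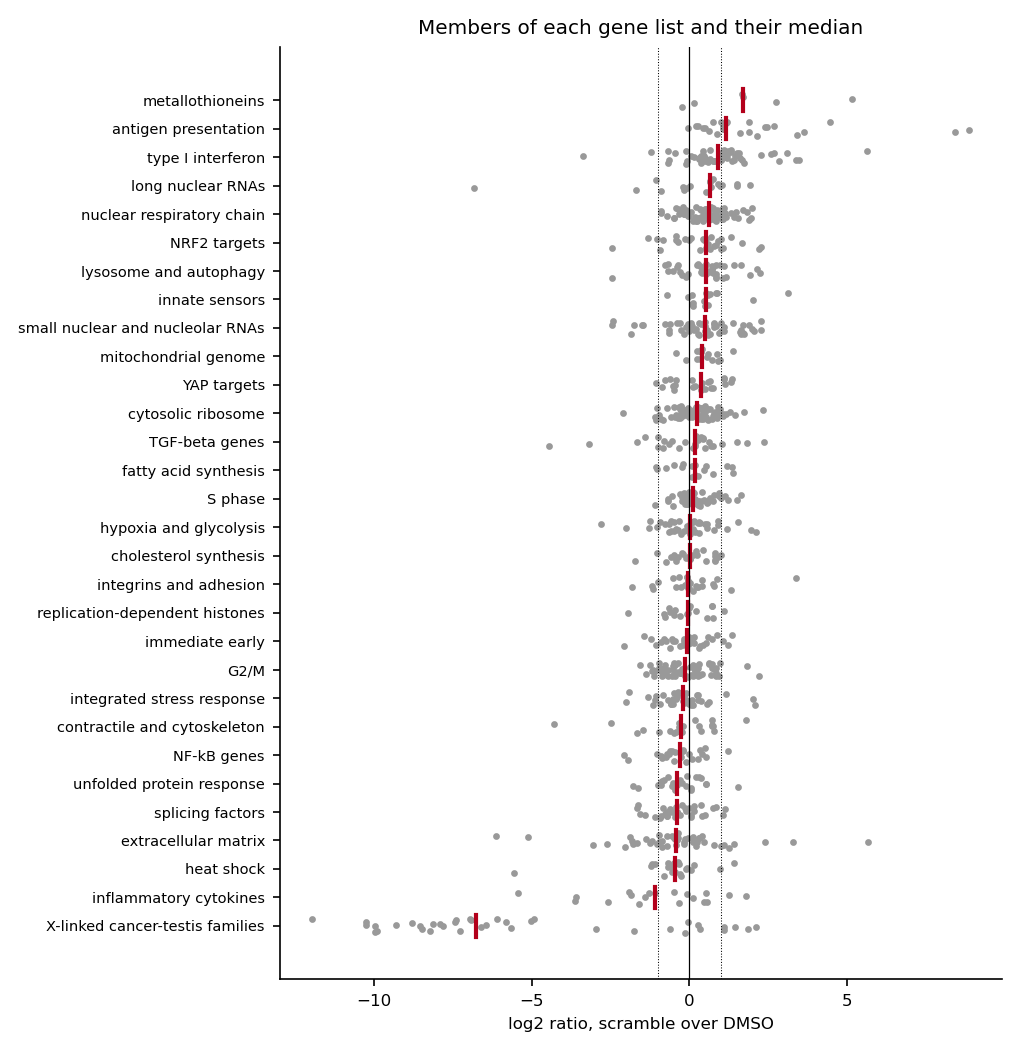
Log2 ratio of scramble over DMSO for each tested member (points) of 30 gene lists, with the list's median as a bar and dotted lines at 2-fold, 1 library per control. Antigen presentation and type I interferon genes lie mostly to the right, cytokines and heat shock genes to the left, S phase and G2/M genes around 0, and the cancer-testis families, chosen after the values were seen, reach -11.94.

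Mesenchymal and matrix genes differed in both directions. Of 47 tested matrix genes, 13 were at least 2-fold lower in scramble and 6 higher, with a median of -0.42. SPARC, a collagen-binding matrix protein, had 14, 15 and 1 counts in scramble, CDK16-sh1 and CDK16-sh2 against 1925, 1970 and 283 in DMSO, 1 μM and 5 μM Reb, a log2 ratio between the controls of -6.11 (-7.12 to -5.50). COL4A1 and COL4A2, the basement membrane collagens, had ratios of -2.62 and -1.88, COL6A2 one of -3.04, and MMP9, a gelatinase, one of -5.10. COL6A3 went the other way within the same collagen, with 5546 counts in scramble and 198 in DMSO, a ratio of 5.64 (5.46 to 5.87). ADAMTS1, a matrix protease, had a ratio of 3.28 and ITGB4, the hemidesmosome integrin, one of 3.37. INHBA, the activin A subunit, had 303 and 11930 counts, a ratio of -4.44.

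Surface antigens showed a similar split. THY1 had 23 counts in scramble and 1790 in DMSO and a ratio of -5.34 (-6.09 to -4.84), and ENG, the TGF-beta coreceptor endoglin, had 117 and 5718 and a ratio of -4.74 (-5.04 to -4.49). NT5E, the ectonucleotidase CD73, was higher in scramble, at 79.6 and 29.9 RPKM. SPARC, COL6A3, THY1 and ENG were called in edgeR's test over 6 libraries, with adjusted p of 0.00333, 0.00444, 0.000699 and 0.0012. Of the transcription factors of epithelial-mesenchymal transition, ZEB1 was at 9.84 RPKM in scramble and 24.3 RPKM in DMSO, ZEB2 at 2.43 and 1.83, and SNAI2 had 996 and 2181 counts, while TWIST1 had 0 counts in both. Of 17 mesenchymal genes tested, 4 were at least 2-fold higher and 5 lower, with a median of 0.23.

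Most members of the respiratory chain, lysosome and NRF2 lists differed by less than 2-fold. Of 73 nuclear genes of the respiratory chain, 18 were at least 2-fold higher in scramble and 0 lower, with a median of 0.63. Among them NDUFC1, a subunit of complex I, had 236 and 108 counts and a ratio of 1.95 (1.65 to 2.32), and ATP5G2, a subunit of the ATP synthase ring, 1928 and 882 and a ratio of 1.98. Transcripts of the mitochondrial genome had a median of 0.41, with MT-CO2 the 1 member past 2-fold. The experiments overlapped for all 15 of them, so this difference was one between the control libraries only. Shorter genes had higher ratios, with a median of 0.11 in the shortest of 5 equal groups by exon length and -0.21 in the longest. With trends over length and GC content removed, the median was 0.54 for the respiratory chain and 0.28 for the mitochondrial genome. Of 6 metallothionein-list genes 4 were higher, with MT1E at 39.9 RPKM in scramble and 5.54 in DMSO, although MT2A was not. Of 39 lysosomal genes 8 were higher and 1 lower, with a median of 0.52. CTSD, the protease cathepsin D, was at 174 and 34.3 RPKM, a ratio of 2.23 (2.19 to 2.28). NQO1, an NRF2 target that reduces quinones, was at 98.8 and 20.1 RPKM, while SLC7A11, the cystine carrier of the same list, had a ratio of -1.31.

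Chaperone and splicing lists had medians below 0. Of 23 heat shock genes, 4 (17.4%) were at least 2-fold lower, against 13.1% of all genes, and 1 was higher. The median of the heat shock list was -0.46. HSP90AA1 had 50795 and 213426 counts, a ratio of -1.22 (-1.23 to -1.21), while the mitochondrial chaperone genes HSPD1 and HSPE1, which share a promoter, had ratios of 0.96 and 1.41. Of 35 splicing factors, 5 (14.3%) were lower and 2 higher, with a median of -0.40, and the share lower was near the 13.1% of all genes. In all libraries of the knockdown experiment 16 of the 35 lay lower and 3 higher, against 20.7% and 21.0% of all genes. SRSF11, LUC7L3 and PNISR had ratios of -1.67, -1.55 and -1.62.

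Proliferation genes had medians near 0. Of 53 S phase genes, 5 were at least 2-fold higher in scramble and 1 lower, with a median of 0.10, and of 67 G2/M genes, 2 were higher and 7 lower, with a median of -0.14. PLK1, a mitotic kinase, was at 28.9 and 23.5 RPKM, CDK1, the kinase that drives entry into mitosis, at 19.2 and 14.4, and its cyclin CCNB1 at 92.7 and 75.4. CKS2, a small CDK-binding protein, was higher in scramble, with 1549 and 600 counts and a ratio of 2.22 (2.08 to 2.36). Cholesterol synthesis genes had a median of 0.00, and the genes of hypoxia and glycolysis one of 0.01. YAP targets had a median of 0.37, with 5 of 24 at least 2-fold higher and 1 lower, and TGF-beta genes one of 0.17, with 4 of 28 higher and 6 lower. Medians near 0 with 1 library a group do not show that these functions were the same.

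The share of genes at least 2-fold apart differed by type and level of transcript. It was 22.4% of 12660 protein-coding genes, 45.2% of 394 lincRNAs and 38.2% of 296 processed pseudogenes, whose reads cannot be told from those of their parents with certainty. Of 5 equal groups by mean level, the lowest held 41.5% and the highest 16.7%, and the shares by type were not corrected for level. Of 78 cytosolic ribosomal protein genes, 7 were higher and 4 lower, with a median of 0.24. Small nuclear and nucleolar RNAs, which guide splicing and RNA modification, had 15 of 54 higher and 6 lower, with a median of 0.49 that was 0.23 with trends over length and GC content removed.

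Several chromosomes had a median ratio away from 0. The median log2 ratio was -0.65 over 557 genes of chromosome 15, of which 131 had a ratio above 0. It was -0.41 over 518 genes of chromosome 14 and -0.35 over 782 genes of chromosome 6, and was positive on chromosome 2, at 0.28 over 1004 genes, and on the X chromosome, at 0.22 over 538. The other chromosomes lay between -0.13 and 0.19. Chromosomes 6, 14 and 15 had a lower median in all 3 libraries of the knockdown experiment than in any of the Reb experiment, whereas chromosomes 2 and X overlapped. Such a separation was common, with 8 of 23 chromosomes lower and 5 higher, and included chromosome 19 with a median of 0.00. With trends over gene length and GC content removed, the median was -0.60 for chromosome 15, -0.40 for chromosome 14 and -0.35 for chromosome 6. DNA copy number was not measured here, so its part in this was not tested.

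Runs of about 50 neighboring genes showed where these differences lay. Over 305 runs, the middle 50% of medians were between -0.19 and 0.17. In 22 runs the median was at or below -0.5, and in 18 at or above 0.5. The lowest was -1.17, on chromosome 14 from 76762189 to 92106621, where 4 of 52 genes had a ratio above 0, and the 4 runs from 70907405 to the distal end of the tested genes all lay at or below -0.61. In the lowest of them CCDC88C, a scaffold of G protein signaling, had 1110 counts in scramble and 9326 in DMSO, and TRIP11, a Golgi protein, 901 and 5785. The first run of chromosome 15, from 20379495 to 34039176, had a median of -1.05, and includes MKRN3, an imprinted gene with 64 and 411 counts. That run also holds GOLGA8 copies, which are near identical and uncertain. Another run of chromosome 15, from 83016422 to 90229679, had a median of -0.91.

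The X chromosome held both directions. Its first run, from 276322 to 15855014, had a median of -0.88 and contains the VCX genes and NLGN4X, and 12 of its 54 genes had a ratio above 0. From 55452105 to 136256482, 4 runs had medians of 0.53, 0.79, 0.70 and 0.86. Those at 0.53 and 0.86 were higher in all 3 libraries of the knockdown experiment, while those at 0.79 and 0.70 overlapped between the experiments. Within the run at 0.86 lie STK26, a kinase of the STE20 family, with 952 counts in scramble and 70 in DMSO, and MBNL3, a splicing regulator, with 286 and 28. Other high runs included one on chromosome 1 from 43946939 to 47314147, with a median of 0.81. A run on chromosome 2 from 27370496 to 37231713 had 0.78 but overlapped between the experiments. On chromosome 11 the run from 127204 to 1764573 had 0.77, and on chromosome 3 that from 48985049 to 50368197 had 0.72. In the chromosome 3 run GPX1, a glutathione peroxidase, was at 230 and 51.2 RPKM. Of the 22 low runs, 21 were lower in all 3 libraries of the knockdown experiment, and of the 18 high runs, 12 were higher in all 3. Over all 305 runs, 84 were lower and 73 higher in this way.

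**Figure D5:**
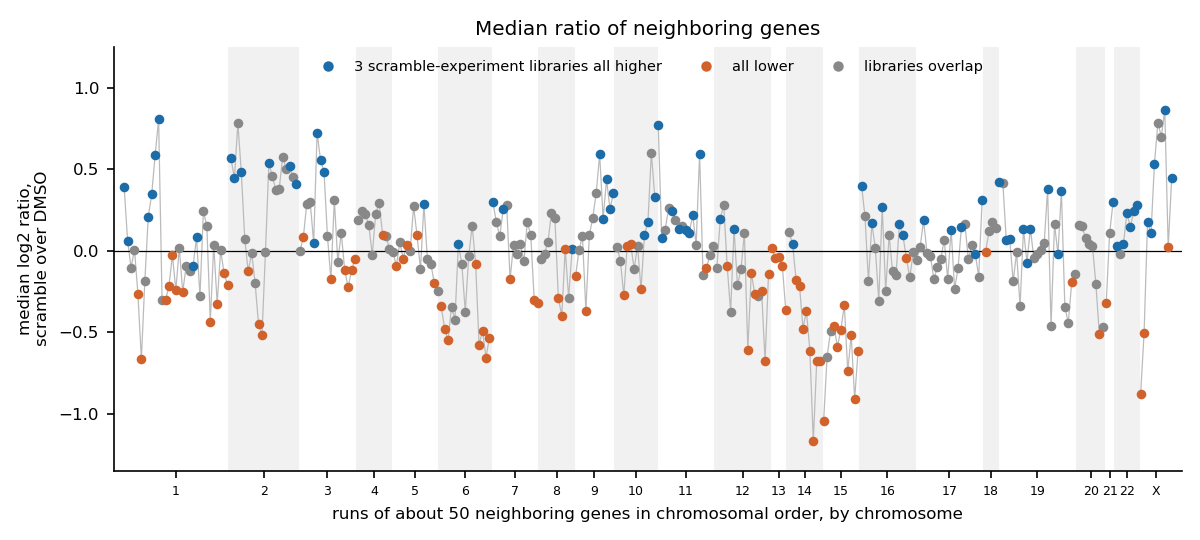
Median log2 ratio of scramble over DMSO in runs of about 50 neighboring genes, in chromosomal order with chromosomes shaded in turn. Color shows whether the median deviation of the run's genes was higher in all 3 libraries of the knockdown experiment, lower in all 3, or overlapping. Chromosomes 14 and 15 fall to -1.17 and -1.05, the distal runs of chromosome 6 lie below 0, and the X chromosome starts low and then rises to 0.86.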

How the data were processed

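The mRNA libraries were made with a stranded kit and sequenced on an Illumina instrument. Per the labels and the submitters' processing notes, the authors used Trimmomatic and featureCounts (Subread 1.5.1) on GRCh38. The aligner, the annotation release and whether counting used strand were not given in the sources used here. The deposited counts were reads per gene symbol, not normalized. The deposited RPKM were made by the authors per exon length and counted reads of the library, and were used as levels only. Sums in CPM, and CPM given for all 6 libraries, use TMM factors over 6 libraries. The factor was 0.6451 for 5 μM Reb and 1.01 to 1.15 for the others, which raises the CPM of 5 μM Reb.

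The 2 count tables, 1 per experiment, were joined on 32627 symbols, which held 99.8% of each control's counts. Symbols turned into dates by a spreadsheet (28 and 27) were left out, and 8816 and 1503 symbols were in 1 table only. Genes whose mean over the controls reached 1 CPM were kept. Ratios were scaled by TMM in edgeR 4.0.16 (R 4.3.3), and their 95% intervals came from exact binomial intervals (scipy 1.17.1) and cover counting error only. There is 1 library per condition, so no p-value was computed between the controls. Over the 6 libraries, edgeR's quasi-likelihood test compared the experiments with Benjamini-Hochberg adjustment, treating treated libraries as replicates, so its p-values measure the spread among different conditions. The self-test on simulated data used the same steps. GC content, known for 99.2% of the genes, came from the reference annotation, and promoters from RefSeq (GRCh38.p14). Alternatives were DESeq2 1.42.0, other scalings, filters, priors and folds, and each library left out.

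The members and lists were chosen with earlier results of these data known. Named were identity and other-cell genes, CDK16, the 20 most abundant genes, the 10 largest ratios in each direction and up to 6 members of each list or chromosome run, at a mean of at least 5 CPM. Any other gene was named after its values were seen, as was the list of cancer-testis families assembled. Some genes are not reported here.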

Additional observations from a re-analysis of the deposited data

Results flagged for a closer look

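Symbols listed in only 1 of the count tables took no part in the comparison of the controls. The table of the Reb experiment held 1503 such symbols, and 5 of them had at least 100 counts in the DMSO control, above the limit of 3 counts that a value of 0 allows. Of these, 3 were transcripts known by clone names alone, with 454, 391 and 116 counts. DDX53 had 158 and MAGEB10 had 100, and both are X-linked genes of the cancer-testis kind. The table of the knockdown experiment held 8816 symbols of its own, of which 71 had more than 3 counts in the scramble control, with a largest value of 45. Values of the 5 symbols in the scramble library were not analysed here.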

How the results depend on the processing

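Of 2729 values of 275 named genes, 2677 kept their side of the 2-fold limit, 32 were no longer past it and 20 were newly past it. Genes at least 2-fold higher and lower in scramble numbered 1935 and 2065, and 3975 and 5144 with no filter on low counts, 1207 and 1219 at a mean of at least 5 CPM, and 383 and 653 at a fold of 4. Library totals moved the median of all genes by 0.108 on the log2 scale and turned the split, to 2316 higher and 1762 lower, as did RPKM, to 2142 and 1600. With trends over length and GC content removed, 28 of 305 run medians changed sign, and these lay between -0.08 and 0.07 before. Of 340 list medians 337 moved little, and that of the cancer-testis families, -6.76, was -2.61 with no filter, -8.01 at a mean of at least 5 CPM and -8.32 with a prior count of 0.5. The median of chromosome 19 was 0.00, and 0.055 at a mean of at least 5 CPM. Calls over 6 libraries, 773 higher and 1138 lower, were 1577 and 2181 by the Wald test of DESeq2. The lower ones were 664 with library totals and 1862 with no filter. Leaving out each library in turn gave 97 to 1990 higher and 211 to 2180 lower. Genes with all 3 libraries of the knockdown experiment below the others numbered 3266, and 4936 without 5 μM Reb. Beyond the filters, fewer genes and fewer samples, the cause of these shifts was not tested. No paired analysis was possible because each condition had 1 library and no replicate numbers. The scramble library was the shallower of the controls, so a gene at 0 there is bounded less tightly than one at 0 in DMSO.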
